A study of Mus musculus with 3 samples.

Results

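Multi-copy inserts are small RNA sequences of 18 to 25 nt that match the mouse nuclear genome at 2 or more places, so that no single locus can be credited with their reads. They were chosen by their matches alone. An insert was kept if none of its exact matches in the NCBIM37 genome lay inside a GENCODE vM1 gene for miRNA, rRNA, snoRNA, snRNA or miscellaneous RNA on its strand, and none lay on the mitochondrial chromosome. The rule gave 55455 members among 1738385 distinct inserts of 18 to 25 nt, of which 198372 matched the genome at all. Members fell into 36157 sequences with 2 to 9 copies, 9628 with 10 to 49 copies and 9670 with 50 or more copies.

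The reads come from HL-1 cells, a contracting mouse cardiac muscle line, in a study that used siRNA against Srf, the gene of a transcription factor (serum response factor) that drives muscle and growth genes. Cells were harvested 48 h after transfection with 9 µl of 20 µM siRNA, and small RNA was read to 36 nt on an Illumina Genome Analyzer. The groups are the library labelled siSrf1 and the library labelled siSrf2, with 1 library each. The other sample, titled siNon, is not analysed here. Titles and siRNA entries disagree: siSrf1 has Srf si2 as its entry, siSrf2 has siNon, and siNon has Srf si1. Directions below therefore name libraries, and a difference between them compares those libraries and not the treatments. Both libraries come from the same cell line, and both received an siRNA according to their titles. The heart and slow muscle miRNA miR-499-5p had 73676 reads in siSrf1 and 63511 in siSrf2, miR-208b-3p had 750 and 779, and the heart miRNA miR-208a-3p had 29 and 28. Small RNA reads do not measure the Srf transcript, so the knockdown itself was not checked.

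Several abundant RNAs are encoded by many identical genes. Transfer RNAs carry amino acids to the ribosome, are transcribed by RNA polymerase III from promoters inside the gene, receive the 3′ bases CCA after transcription, and are cut by nucleases into fragments. Ribosomal RNA is transcribed from tandem gene arrays, and copies and pseudogenes of it are scattered through the assembly. Interspersed repeats derived from retroelements, and satellite repeats at centromeres, hold the highest copy numbers. Retroviral elements start their reverse transcription from the 3′ end of a host tRNA, so their primer binding sites are the complement of tRNA 3′ ends.

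The sequences that the results turn on are shown first, 5′ to 3′. Coordinates are those of NCBIM37. A tRNA gene from each of 4 groups shows where the fragments lie. Capitals mark the first 18 nt, where most tRNA-derived inserts begin, and the B box, the internal promoter element, which in these genes matches GTTCNANNC (N is any base).
Lys-TTT, chr1:134930539-134930611, plus strand: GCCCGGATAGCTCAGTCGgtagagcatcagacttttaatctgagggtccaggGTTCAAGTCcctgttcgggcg
Val-CAC, chr1:173041574-173041646, plus strand: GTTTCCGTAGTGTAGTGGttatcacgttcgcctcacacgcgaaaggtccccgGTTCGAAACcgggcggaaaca
Leu-CAG, chr1:172968745-172968827, plus strand: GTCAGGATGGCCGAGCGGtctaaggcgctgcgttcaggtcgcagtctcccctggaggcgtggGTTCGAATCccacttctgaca
Ser-AGA, chr4:10801211-10801292, plus strand: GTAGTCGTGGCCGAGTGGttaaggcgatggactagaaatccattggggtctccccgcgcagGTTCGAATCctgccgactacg

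Inserts from 5′ ends of tRNA that differ only in where they stop are shown because the libraries differed at particular stops. Capitals mark the bases past the first 18.
Lys-TTT, 19 nt: gcccggatagctcagtcgG
Lys-TTT, 20 nt: gcccggatagctcagtcgGT
Lys-TTT, 21 nt: gcccggatagctcagtcgGTA
Val-AAC and Val-CAC, 18 nt: gtttccgtagtgtagtgg
Val-AAC and Val-CAC, 22 nt: gtttccgtagtgtagtggTTAT
the other Val form, 22 nt: gtttccgtagtgtagtggTCAT
Leu-CAG, 18 nt: gtcaggatggccgagcgg
Leu-CAG, 19 nt: gtcaggatggccgagcggT

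Inserts that end in CCA are shown because the genome holds them away from tRNA genes. Capitals mark the CCA.
Ala-CGC and Ala-TGC 3′ end: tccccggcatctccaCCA
Ala-AGC 3′ end: tccccagcatctccaCCA
Pro 3′ end, 22 nt: tcaaatcccggacgagcccCCA
Met-CAT 3′ end: aaccatcctctgctaCCA

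The end of the 18S block and the leading inserts of a 234-nt tandem array close the set. In the first pair the capital marks the base that only the longer insert has, and in the array inserts capitals mark the stretch that all 4 share.
18S end, 18 nt: cctgcggaaggatcatta
18S end, 19 nt: Acctgcggaaggatcatta
tandem array, 21 nt: tttTTCAAGTCGTCAAGTGGA
tandem array, 20 nt: ttTTCAAGTCGTCAAGTGGA
tandem array, 19 nt: tTTCAAGTCGTCAAGTGGA
tandem array, 18 nt: TTCAAGTCGTCAAGTGGA

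Multi-copy inserts took 158936 of 7748874 reads of 18 to 25 nt in siSrf1, or 2.05% with an exact Clopper-Pearson 95% interval of 2.04 to 2.06%. In siSrf2 they took 196036 of 7013026 reads, or 2.80% with an interval of 2.78 to 2.81%. Reads carry no molecular identifiers, so these intervals and those below cover counting error only. All comparisons below scale reads to those of inserts inside annotated miRNA genes, 4816917 in siSrf1 and 4111859 in siSrf2. On that scale the members were 1.44-fold higher in siSrf2, a log2 difference (siSrf1 minus siSrf2) of -0.53 with an interval of -0.54 to -0.52. Because miRNA reads are the yardstick, more fragments and fewer miRNA molecules per cell cannot be told apart, and neither can a change in the makeup of the culture. Scaling to all inserts of 15 nt or longer would move every log2 difference up by 0.14, so that small differences in the direction of siSrf2, such as that of alanine tRNA, change direction with the scale. With 1 library per group, no replicate spread stands beside any of these ratios. Where 2 read numbers are given together, the first is siSrf1 and the second siSrf2, before scaling.

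The difference was larger for the highest copy class. Members with 2 to 9 copies had 108050 and 128772 reads (1.40-fold higher in siSrf2), those with 10 to 49 copies 32997 and 40686 (1.44-fold), and those with 50 or more copies 17889 and 26578 (1.74-fold). Single-match inserts outside the same gene classes had 153653 and 230367 reads, 1.76-fold higher in siSrf2, so a ratio of this size was not a feature of multi-copy inserts alone. Exon antisense matches held 56.2% of single-match reads in siSrf1 and 42.8% in siSrf2 and were 1.34-fold higher in siSrf2, while the other contexts ran from 1.98-fold (between genes) to 3.07-fold (introns in sense). Diversity went with it. The library labelled siSrf1 held 22156 distinct members with 7.17 reads each, and siSrf2 held 43830 with 4.47 reads each. Reads with no insert between the adapters numbered 971018 of 14911499 in siSrf1 and 1212946 of 14518157 in siSrf2, and the part of library quality in the ratios was not tested.

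Sorting the members by what they match shows that the pooled ratio averages very unlike groups. Inserts of tRNA genes made up 36.6% of member reads in siSrf1 and 35.8% in siSrf2, and tRNA genes are not among the gene classes that the rule removed. Loci of at least 100 nt tiled by at least 2 distinct inserts per nt made up 38.3% and 28.1%. Their largest block lies at chr17:39983298-39985148 beside the pseudogene AY036118, where RefSeq (GRCm38.p6, used here for names and gene order) lists Rn18s-rs5, a copy of 18S ribosomal RNA of 1849 nt against 1851 nt for the block. Inserts with the CCA of mature tRNA made up 6.86% and 6.30%, and hairpins that only RefSeq lists 4.03% and 2.87%. What was left, 37486 sequences or 67.6% of all member sequences, held 9.05% of member reads in siSrf1 and 20.8% in siSrf2.

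**Figure D1:**
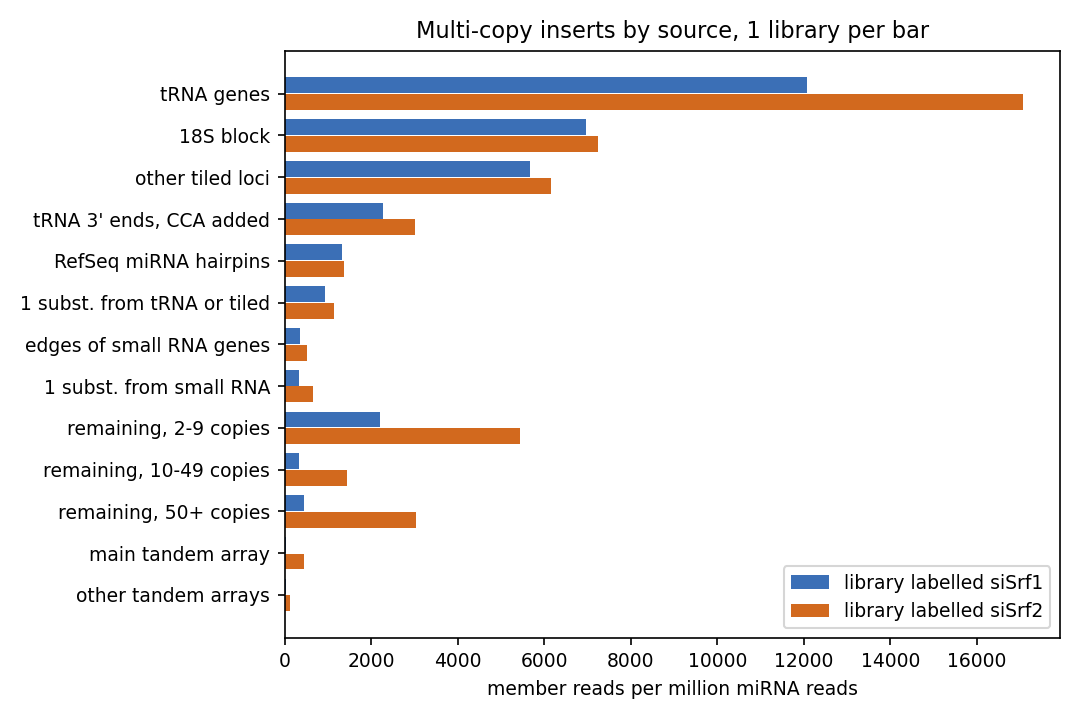
Reads of multi-copy inserts scaled to miRNA reads, by source, with 1 bar per library. The tRNA genes are the longest bars (58177 and 70163 reads before scaling). The 18S block and the other tiled loci have nearly equal bars, and the remaining inserts and tandem arrays are several times longer in siSrf2.

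Fragments of tRNA genes had 58177 reads in siSrf1 and 70163 in siSrf2, over 3925 sequences, and were 1.41-fold higher in siSrf2. Most of them began at the first base of the gene. Such 5′ fragments held 66.4% of tRNA gene reads in siSrf1 and 70.4% in siSrf2 and were higher in siSrf2 by a log2 difference of -0.58, while internal fragments differed by -0.31. Fragments of the genomic 3′ end, before CCA is added, were rare at 92 and 198 reads. Ends that do carry CCA, described below, had 10901 and 12355 reads.

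The amino acid families did not move together. Lysine tRNA, the most read over both libraries summed, had 12111 and 19430 reads and was 1.88-fold higher in siSrf2. Alanine tRNA had 14836 and 13626 reads, 1.08-fold higher in siSrf2 after scaling, and glutamate tRNA 8461 and 7153 reads, 1.01-fold higher in siSrf1 with an interval of the log2 difference from -0.03 to 0.06. Alanine and glutamate tRNA were thus level or nearly so, although they stand among the 3 most read. Proline tRNA had 1046 and 2494 reads and was 2.79-fold higher in siSrf2, and tyrosine tRNA had 106 and 192 reads and was 2.12-fold higher. Valine (6402 and 8539 reads), serine (2988 and 4034), methionine (2428 and 2920) and glycine (2018 and 3008) lay between, from 1.41-fold to 1.75-fold higher in siSrf2. The place of the cut also differed by family. Inserts from the 5′ end held 98.1% of alanine reads, 98.2% of serine reads and 96.2% of valine reads, but 11.1% of glutamate reads, 8.95% of proline reads and 1.29% of methionine reads.

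Within a family the libraries differed at particular lengths. The Lys-TTT fragment of 19 nt had 2295 reads in siSrf1 and 8544 in siSrf2, a 4.36-fold difference after scaling (log2 -2.12, interval -2.19 to -2.06). The same fragment with 1 base more had 1378 and 1582 reads (1.34-fold), and with 2 bases more 2439 and 2116 reads (1.02-fold). So siSrf1 had its peak at 21 nt and siSrf2 at 19 nt, and the excess of lysine reads in siSrf2 lay mostly in 1 sequence. These fragments stop in the D arm, the first stem and loop of the tRNA.

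The Val-AAC and Val-CAC genes share their first 18 nt, and the insert of exactly that length had 3905 and 3777 reads (1.13-fold higher in siSrf2). At 22 nt the 2 forms together had 503 and 1688 reads, 3.93-fold higher in siSrf2, and at 23 nt 358 and 961 reads, 3.14-fold higher. At 20 nt they had 225 and 163 reads, with an interval of the log2 difference from -0.06 to 0.54. Each of the 2 forms of 22 nt was higher in siSrf2, the first with 246 and 1062 reads and the other with 257 and 626. Leu-CAG had 1296 and 983 reads at 18 nt, 1.13-fold higher in siSrf1, but 1281 and 1727 at 19 nt, 1.58-fold higher in siSrf2. The commonest alanine group was flat by comparison, at 2173 and 1469 reads for 20 nt, 2385 and 1815 for 22 nt and 2163 and 1823 for 23 nt, with ratios from 1.26-fold higher in siSrf1 to level. Ser-AGA and Ser-TGA, which share their 5′ end, had 397 and 415 reads at 22 nt but 266 and 499 at 23 nt, 2.20-fold higher in siSrf2. The libraries thus differed in where tRNA inserts ended as well as in their number. Inserts of 1 ladder come from the same genes and are not independent observations.

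**Figure D2:**
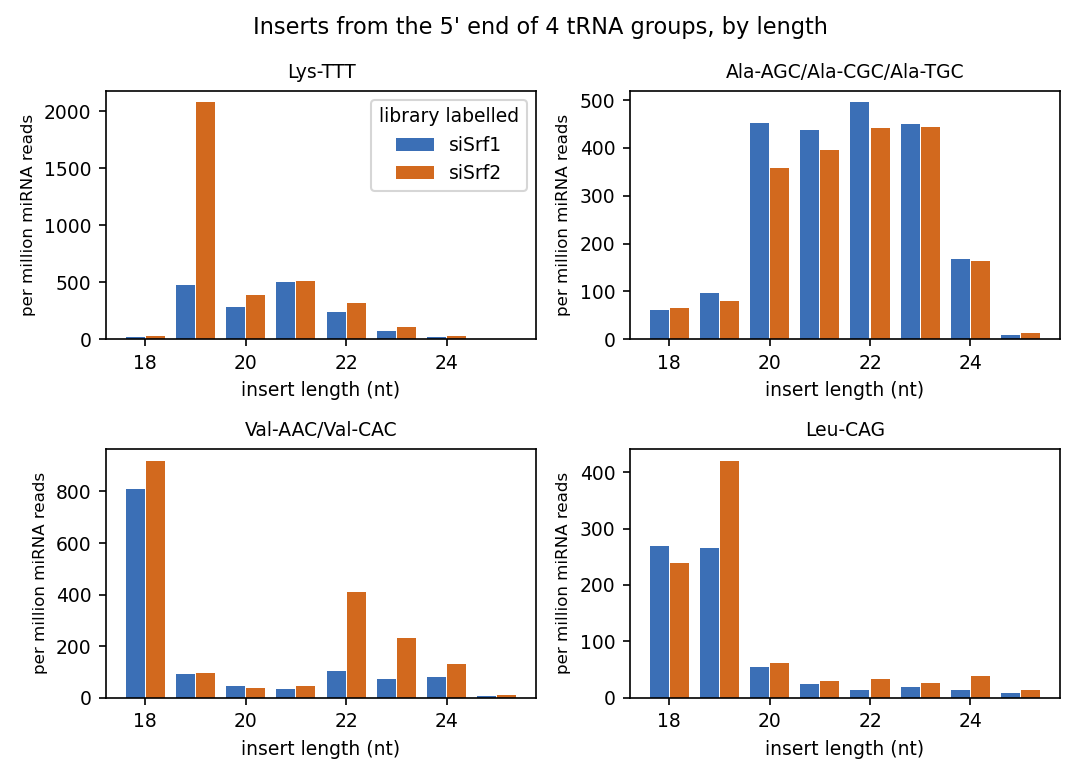
Reads of 5′ tRNA inserts scaled to miRNA reads against insert length in nt, for 4 tRNA groups and both libraries. Bars for Lys-TTT separate at 19 nt (2295 and 8544 reads before scaling) and those for Val at 22 and 23 nt, while the alanine bars differ by 1.26-fold or less from 18 to 24 nt.

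The 66 inserts with CCA held 10901 reads in siSrf1 and 12355 in siSrf2 and were 1.33-fold higher in siSrf2. Of their reads, 83.8% were at exactly 18 nt, the shortest length kept, in siSrf1 and 78.3% in siSrf2. The genome does not encode the CCA of a tRNA, so a match of the whole insert must lie elsewhere. Such matches were fewer for longer inserts, with 22 sequences at 18 nt and 1 at 25 nt. These shares therefore describe the members and not the lengths of CCA-ended tRNA fragments in general. For the 15 inserts with 50 or more copies, the genome went on with TG within the next 5 nt in a median of 95.2% of matches (45.2 to 100%). Over 187 remaining inserts of 50 or more copies, up to 2000, that median was 6.67%. As background, a retroviral long terminal repeat ends in CA next to the primer binding site, which reads TG on the strand of the tRNA. The matches were not assigned to an element.

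The CCA ends differed by tRNA. The alanine end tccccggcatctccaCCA, which matched 2 genome places, had 2668 and 3780 reads and was 1.66-fold higher in siSrf2. The related alanine end tccccagcatctccaCCA had 102 and 336 reads, 3.85-fold higher. The proline end of 18 nt, with 165 matches, was the most read and was level at 3666 and 3230 reads (1.03-fold higher in siSrf2), but the proline end of 22 nt had 447 and 923 reads and was 2.42-fold higher in siSrf2. The isoleucine end of 18 nt with 649 matches was also level, at 899 and 741 reads. On the other side, the methionine end aaccatcctctgctaCCA had 149 and 86 reads and was 1.48-fold higher in siSrf1, and a Gln-CTG end had 385 and 228 reads and was 1.44-fold higher in siSrf1.

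Inserts of the tiled loci had nearly the same level in the libraries, and the direction of their small difference turned (log2 from -0.08 to 0.051) with all inserts of 15 nt or longer as the scale. The 18S block had 33588 and 29784 reads over 4569 sequences, 1.04-fold higher in siSrf2 (log2 -0.05, interval -0.08 to -0.03). All but a few lay on 1 strand, with 19 and 23 reads on the other. Reads of members were spread unevenly along the block, from 0 for inserts starting in positions 201 to 250 up to 4543 and 3820 for those starting in positions 1751 to 1800. Inserts with a single genome match, or with a match inside an annotated small RNA gene, are not counted. An empty stretch therefore does not show that 18S fragments were absent there. The other tiled loci had 27334 and 25333 reads over 5288 sequences and were 1.09-fold higher in siSrf2. In the 40 tiled loci taken singly, many of which hold the same sequences, log2 differences ran from -0.36 to 0.06. The busiest was chr16:11144253-11144408 in Zc3h7a (9004 and 7449 reads), and locus sequences recurred in Lars2, Jarid2, Arhgap21 and Gphn.

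The 3′ end of the 18S block held a pair of inserts that differed from each other. Inserts starting in positions 1801 to 1850 had 2115 and 2751 reads over 8 sequences. The insert cctgcggaaggatcatta had 1583 and 1314 reads, 1.03-fold higher in siSrf1. The insert that begins 1 base earlier, Acctgcggaaggatcatta, had 525 and 1427 reads and was 3.18-fold higher in siSrf2 (log2 -1.67, interval -1.82 to -1.53). Both end at the same base, so here the libraries differed in the 5′ end of the fragment.

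Inserts of hairpins listed by RefSeq but not by GENCODE vM1 almost all equalled a stretch of Mir378c, a miR-378 family precursor. These held 6359 of 6400 reads in siSrf1 and 5574 of 5633 in siSrf2. The leading insert, of 20 nt with 4740 and 4480 reads, matched 3 genome places, so its reads cannot be credited to Mir378c alone. The Mir378c inserts were level (1.03-fold higher in siSrf2, log2 interval -0.09 to 0.01). Inserts that overhang the edge of an annotated small RNA gene had 1688 and 2088 reads and held opposite cases. Those of a 5S ribosomal RNA gene, AC141881, had 1192 and 1028 reads (1.01-fold higher in siSrf2). Those of U3, a snoRNA that guides processing of the ribosomal RNA precursor, had 173 and 521 reads and were 3.52-fold higher in siSrf2. The annotated hairpin mmu-mir-2134-1 had 22 and 129 such reads (6.74-fold higher in siSrf2) and mmu-mir-2134-4 had 10 and 90 (10.1-fold). Inserts 1 substitution away from an annotated small RNA added 1593 and 2712 reads, and those 1 substitution from a mitochondrial gene 14 and 26.

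The remaining inserts had 14386 reads in siSrf1 and 40713 in siSrf2, a 3.32-fold difference after scaling. The difference of these inserts was larger at 10 or more copies than below 10. Those with exactly 2 copies had 5404 and 11682 reads (2.53-fold higher in siSrf2), and those with 3 to 9 copies 5207 and 10679 (2.40-fold). From 10 to 49 copies the reads were 1603 and 5919 (4.32-fold), from 50 to under 200 copies 900 and 3896 (5.07-fold), and from 200 to under 1000 copies 539 and 2715 (5.90-fold). From 1000 to under 10000 copies they were 496 and 3298 (7.78-fold), and with 10000 or more copies 237 and 2524 (12.5-fold, log2 -3.64, interval -3.84 to -3.45). In each step of copy number every length from 18 to 25 nt was higher in siSrf2, by 2.21-fold or more. The low steps pool unlike families. With a leading insert of 2 to 9 copies, a large family first matched at chr1:197066941-197066958 was nearly level (879 and 777 reads). Another at chr3:5860711-5860733 was 8.85-fold higher in siSrf2 (63 and 479 reads). The part of the mix of loci in the rise with copy number was not tested.

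**Figure D3:**
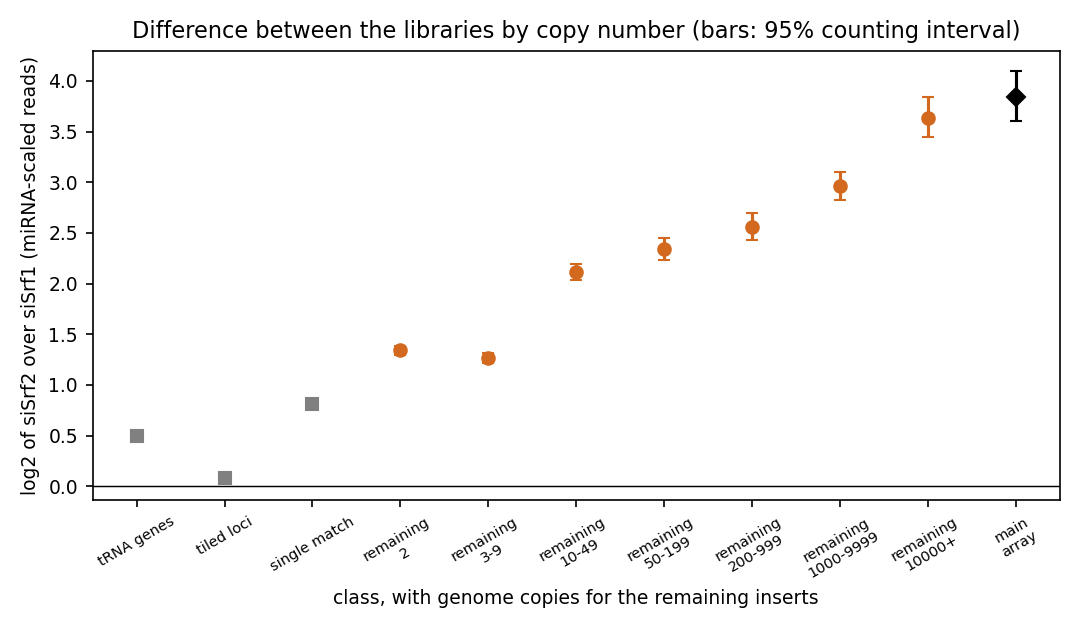
Log2 ratio of siSrf2 over siSrf1 for scaled reads, by class, with 95% counting intervals as bars. Grey squares are reference classes, circles are remaining inserts by genome copies and the diamond is the 234-nt array (labelled main array). Ratios run from 2.40-fold at 3 to 9 copies to 12.5-fold at 10000 or more copies, and tiled loci sit near 0. The mix of loci was not separated within these steps.

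Base composition changed mainly at the highest copy numbers. In siSrf2 the mean GC content of remaining reads was 48.5% at 2 copies and 47.1% from 200 to under 1000 copies. It was 44.1% from 1000 to under 10000 copies and 40.5% at 10000 or more copies. The values within bands of GC content were as follows. From 30 to 40% GC, remaining inserts with 50 or more copies were 8.80-fold higher in siSrf2 and those with 2 to 9 copies 2.62-fold, and from 50 to 60% GC the values were 5.24-fold and 2.37-fold. Single-match inserts were 2.65-fold and 1.39-fold higher in the same bands, and tiled loci 1.07-fold higher and level. The part of base composition in the ratios was not tested.

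Tandem arrays showed the largest ratio of any source, a rank that is partly built in. Inserts of an array with a 234-nt unit, the length of the mouse major satellite of pericentromeric chromatin, had 150 reads in siSrf1 and 1842 in siSrf2, 14.3-fold higher in siSrf2 (log2 -3.84, interval -4.10 to -3.61), over 342 sequences. The array was found at 79 windows, of which 14 lie on assembled chromosomes. Its unit was picked by the number of distinct inserts over both libraries, and its windows were drawn from those inserts. Most of its reads came from siSrf2, so the choice itself leaned on that library. Its most read insert, tttTTCAAGTCGTCAAGTGGA, matched 25 places, the first on an assembled chromosome at chr2:98506739-98506759 on the minus strand in the gene model Gm10800, and had 27 and 343 reads. The next, tTTCAAGTCGTCAAGTGGA, had 18 and 275 reads. At every length from 18 to 25 nt the array was higher in siSrf2, between 6.38-fold (4 and 24 reads at 25 nt) and 21.5-fold (22 and 412 reads at 18 nt). Read numbers in siSrf1 were thus small. The 4 leading inserts are nested in each other, so the lengths are not independent observations. Inserts of other tandem arrays had 104 and 541 reads and were 6.07-fold higher.

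In the repeats named next, most reads lay on the strand of the leading insert. That strand was picked by these same reads, so an excess on it is partly built in. In the chromosome 2 windows of the 234-nt array, chr2:98501898-98504714 and chr2:98506207-98507968, the strand of the leading insert had 106 and 1330 reads and the other strand 13 and 45. Around the matches of a remaining family with 11639 copies, the strand of its leading insert had 89 and 941 reads and the other strand 0 and 1. A family of 26798 copies had 25 and 379 reads on the leading strand and 3 and 14 on the other, and a family of 8890 copies 43 and 279 against 8 and 32. In each of these the reads on the leading strand were more in siSrf2. Pairs of opposite strands whose 5′ ends overlap by 10 nt, the pattern known from piRNA pairs, made up 0.0433% of weighted overlaps of remaining inserts in siSrf1 and 0.0242% in siSrf2. Among remaining inserts the largest share was 19.33% at 19 nt in siSrf1 and 15.97% at 20 nt in siSrf2. In the 234-nt array the 10-nt pairs made up 3.58% and 6.18%, from few pairs (0.276 and 13.9 weighted pairs). Overlaps of 9 nt made up 0.471% and those of 11 nt 0.0285% in siSrf2, but some other lengths had larger shares than 10 nt. The largest in the array was 28.48% at 15 nt in siSrf1 and 25.33% at 23 nt in siSrf2, so 10 nt was not the main overlap in either library. Over all members with 10 to 49 copies the 10-nt share was 3.36% and 2.59%.

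To avoid counting overlapping inserts separately, members were joined into locus families wherever their matches overlapped by at least 15 nt on a strand. A difference was counted when it was at least 2-fold with its whole interval on 1 side of 0, over items with at least 50 reads in sum. Of 793 members that reached 50 reads, 110 were higher in siSrf2 and 6 in siSrf1. Inserts inside annotated miRNA genes gave 120 and 1 of 668 by the same measure. Over all 2155 genome-matched inserts of that depth the rates were 17.2% higher in siSrf2 and 0.51% higher in siSrf1, so the members' count did not exceed the background of the libraries. Summed into families, 78 of 194 were higher in siSrf2 (40.2%) and 1 was higher in siSrf1 (0.515%). No family rate was computed over all genome-matched inserts. The 40.2% therefore cannot be set against the 17.2%, which counts single inserts. The median log2 difference was -0.56 over families, -0.05 over members and -0.16 over all inserts tested.

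A family had to reach 50 reads in sum, and some remaining families did so only through siSrf2 (1 of them with 0 and 51 reads, another with 2 and 71), so the counts by source are partly set by that minimum and describe the families without supporting a difference. Among remaining inserts 52 of 79 families were higher in siSrf2, among families of the 234-nt array 4 of 4, among tRNA gene families 9 of 33, among other tiled loci 2 of 12 and in the 18S block 1 of 25. The leading families by ratio with at least 200 reads were the main 234-nt array family (88 and 1367 reads, 18.1-fold higher in siSrf2), the family of 26798 copies (18 and 282, 17.9-fold) and the family of 11639 copies (102 and 962, log2 -3.46). Next came a family of 2 copies at chr3:5860711-5860733, beside a tiled locus (63 and 479 reads, 8.85-fold), the family of 8890 copies (57 and 345, 7.04-fold) and a family of 28875 copies (43 and 227, 6.13-fold). Last were the family of ggaaagggggccgccctc, first matched at chr1:138261701-138261718 (62 and 292 reads, 5.48-fold), and a family of 813 copies (61 and 246, 4.70-fold). In 6 of these 8 families the leading insert had 25 or more copies. No family with 200 or more reads passed in the direction of siSrf1. The single smaller one, a variant of the alanine tRNA 5′ end at chr9:106729865-106729886 in Vprbp, had 44 and 16 reads.

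**Figure D4:**
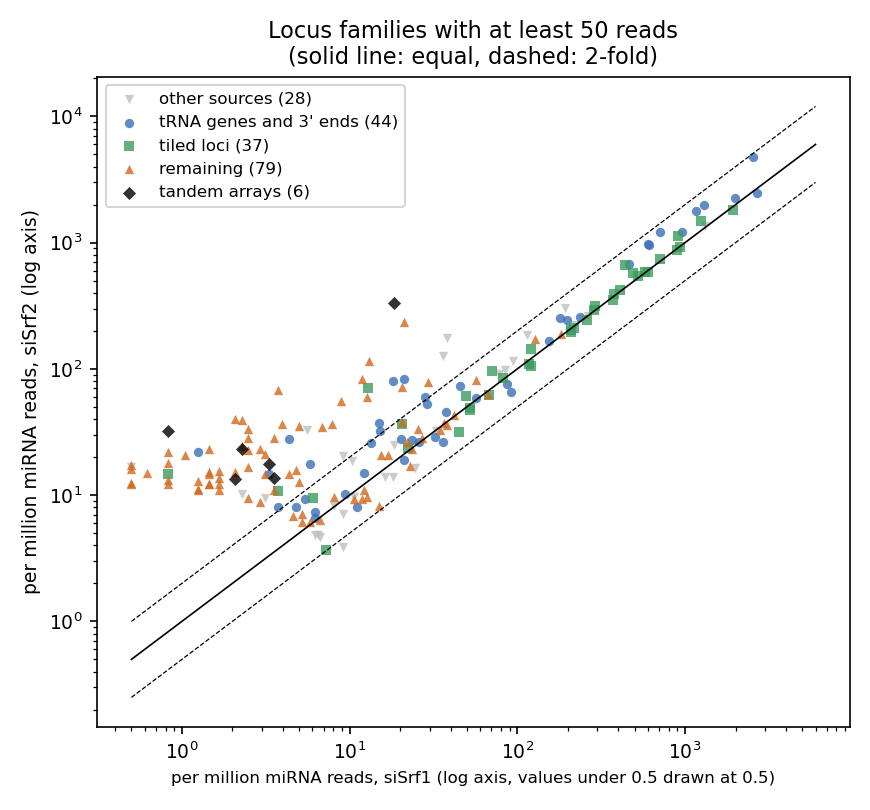
Scaled reads of each of the 194 locus families in siSrf2 against siSrf1, on log axes, coloured by source. Most families of tiled loci lie along the line of equal levels, while 52 of 79 remaining families (triangles) and all 6 of tandem arrays (diamonds) pass the 2-fold size rule above it.

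The most read families of each copy class ranged from level to several-fold higher in siSrf2. In the class of 2 to 9 copies they were Lys-TTT (12215 and 19561 reads, 1.88-fold higher in siSrf2), the tiled family of accattcgtagacgacctgcttc at chr1:169270414-169270436 (9310 and 7444, 1.07-fold higher in siSrf1), Mir378c, Leu-CAG (4594 and 5020), the tiled family of tacgcgttaggacccgaaaga at chr13:44965368-44965388 in an intron of Jarid2 (4401 and 4680) and the alanine CCA end (3407 and 4950). With 10 to 49 copies, the Glu-CTC family of agtggttaggattcggcg led with 9551 and 9220 reads, before Val (6272 and 8202) and a tiled family (6023 and 6123). Ser-AGA with Ser-TGA (2945 and 3967), a tiled family in Arhgap21 (2777 and 2420) and the family of ggtccctgttcgggcgcca (930 and 1248) followed. With 50 or more copies, Ala ggggatgtagctcagtggtaga led (12865 and 10220 reads, 1.07-fold higher in siSrf1), before the proline CCA end (5573 and 7288), the 5S edge family of accgggtgctgtaggctt (1279 and 1074) and the isoleucine CCA end (1144 and 1059). The fifth and the sixth in this class were the family of 11639 copies and a family of 5375 copies near an annotated small RNA (183 and 728 reads, 4.65-fold higher in siSrf2).

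Length set the members apart from miRNA, whose reads averaged 21.9 nt. Member reads averaged 20.0 nt in either library, with 29.8% of reads at 18 nt in siSrf1 and 27.5% in siSrf2. The share fell at each longer length in both libraries. In siSrf1, 69.7% of tRNA gene reads began with G, 53.7% of CCA-end reads began with A, and 67.3% of 234-nt array reads began with T. The corresponding values in siSrf2 were 73.0%, 45.6% and 72.8%. Of miRNA reads, 93.3% began with T in siSrf1. The remaining inserts with 50 or more copies had no such dominant base, with A the commonest in siSrf1 at 34.5% and T the commonest in siSrf2.

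**Figure D5:**
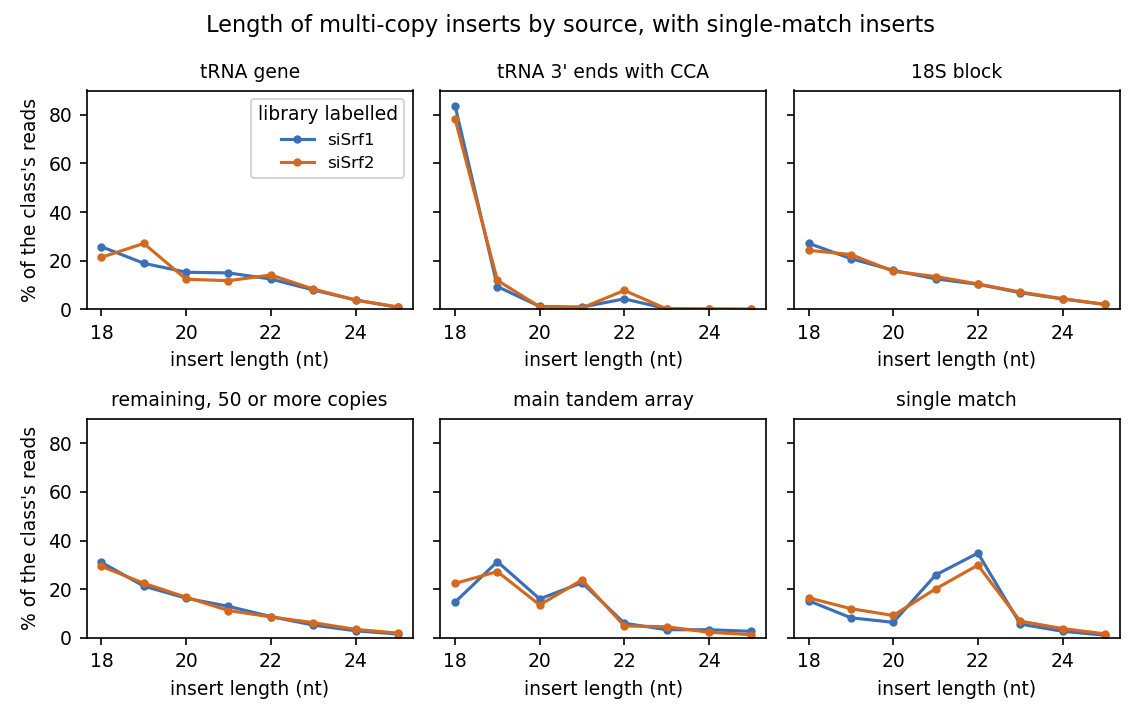
Share of each class's reads in percent against insert length in nt, for both libraries. Remaining inserts with 50 or more copies and 18S inserts decline from 18 nt, CCA ends stand at 18 nt (83.8% in siSrf1), and single-match inserts peak at 22 nt.

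With reads divided equally over all matches of an insert, 65.6% of member reads in siSrf1 and 67.2% in siSrf2 fell between genes. Exons in sense took 2.97% and 3.27%, exons in antisense 5.07% and 4.51%, and introns the rest. Remaining inserts with 50 or more copies were 6.61-fold higher in siSrf2 in introns in sense, 5.67-fold in introns in antisense and 6.98-fold between genes. In exons, which held under 1% of their reads in each orientation, they were 3.06-fold higher in sense and 3.75-fold in antisense. The genes with the most member reads in sense exons drew them from different sources. Tiled loci gave most of the reads in Lars2, AA474408 and Gm15564, a tRNA gene in Rnf214, the edge of the small RNA gene in U3, and remaining inserts in AC115697.1. The values were those of Lars2, a mitochondrial leucyl-tRNA synthetase (754 and 665 divided reads), AA474408 (403 and 322), the U3 gene (141 and 430), Gm15564 (227 and 195), Rnf214 (181 and 141) and AC115697.1 (162 and 137). AC115697.1 is annotated as a miRNA gene, and its 108 sequences overlap it on its strand without lying wholly inside. Inserts were classed as edge inserts only if at least 50% of their matches overlapped an annotated small RNA gene. Sense exons of 51 histone genes, which form a multi-copy family with near-identical coding sequence, held 38 member sequences and 13.5 and 21.8 divided reads. The B box motif GTTCNANNC lay within 100 nt of some match of the leading insert (up to 2000 searched), on the insert's strand, for 98 of 194 families (50.5%). Counting only the first match it lay near 41 (21.1%), and near 14 of 161 families outside tRNA genes (8.70%). For single-match inserts with at least 50 reads it lay near 76 of 323 (23.5%). Inserts of tRNA genes were not removed from that set, so it is not a background without tRNA genes. The tRNA gene scan asked for this motif with any second base, so tRNA gene families carry it largely by construction. An insert with many matches also has more places where the motif can lie.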

How the data were processed

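Each deposited table gives a read count per distinct 36-nt sequence, adapter included, as made by the authors and without normalization. No aligner, build or read filter is stated in the sources used here. Libraries held 14911499 (siSrf1) and 14518157 (siSrf2) reads, and 59.4% and 57.2% gave an insert of 15 nt or longer.

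Reads were trimmed at an exact match of the first 8 adapter nt (or by a stretch of 4 nt or more ending the read). Inserts were matched without mismatch to all 211 sequences of NCBIM37 (Python 3.11.15, numpy 2.4.6, numba 0.67.0). tRNA genes were found by a cloverleaf scan asking 19 of 21 stem pairs and the B box motif with any second base. It gave 441 loci, of which 349 shared chromosome and anticodon with 403 RefSeq tRNA genes. Log2 differences used scaled reads with a pseudocount of 0.5 and exact binomial 95% intervals (scipy 1.17.1). Steps were tested on simulated data. No p-value was computed.

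Named families are the 6 most read per copy class and, among those with 200 reads or more that passed the size rule, the 8 most different in either direction. Genes named are up to 6 with the most sense-exon reads and those at these families. Other items were chosen after their values were seen. Members, lists and rules were chosen with earlier results of these data known, and source classes and thresholds were set after seeing the inserts. Alternatives included TMM factors (edgeR 4.0.16, R 4.3.3). The letters of inserts with a match on chromosome 18 are not printed, but their reads are counted.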

Additional observations from a re-analysis of the deposited data

How the results depend on the processing

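No paired analysis was possible because the groups hold 1 library each. Leaving out a library leaves nothing to compare. TMM and the pseudocount do not bear on shares and were not run there, and the join of families bears on families only.

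Every alternative for all members and the 3 copy classes kept the direction (siSrf1 minus siSrf2, log2). In the order all members, 2 to 9, 10 to 49 and 50 or more copies, scaling to inserts of 15 nt or longer gave -0.40, -0.35, -0.40 and -0.66, scaling to genome-matched inserts -0.47, -0.42, -0.47 and -0.74, TMM -0.46, -0.41, -0.46 and -0.73, lengths of 20 to 24 nt -0.48, -0.40, -0.62 and -0.71, sequences read once left out -0.39, -0.36, -0.40 and -0.54, and near copies of annotated RNA and RefSeq hairpins left out -0.58, -0.51, -0.57 and -1.21. Leaving out overlaps with annotated genes on either strand gave -0.55 for all and -0.50 for 2 to 9 copies. The shares (siSrf1 and siSrf2) became 1.79% and 2.36% of inserts of 15 nt or longer, 3.07% and 4.26% of genome-matched inserts, 2.07% and 2.83% with 12 nt of adapter, 1.15% and 1.54% for 20 to 24 nt, 2.10% and 2.63% without sequences read once, 1.93% and 2.67% without overlaps on either strand, and 1.80% and 2.55% without near copies.

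Alternatives for sources were added after seeing the data. For tiled loci the difference turned to 0.051 with inserts of 15 nt or longer as scale, and was -0.025 with genome-matched inserts and -0.010 with TMM, so its direction depends on the scaling. Under those 3 scalings tRNA genes gave -0.36, -0.44 and -0.42, and remaining inserts and arrays under 50 copies -1.38, -1.46 and -1.44. With 50 or more copies the first gave -2.60 and TMM -2.67. Without sequences read once, the values were -0.97 under 50 copies, -3.39 with 50 or more and -4.38 for the 234-nt array.

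Families higher in siSrf2 numbered 41 with 20 to 24 nt, 283 with a minimum of 10 reads, 5 with 500 reads and 37 when joined at 1 nt of overlap. Those higher in siSrf1 numbered 2 under each of the 3 scalings and with 10 reads, and 0 with 12 nt of adapter, a pseudocount of 5 or 500 reads. Members higher in siSrf2 numbered 68 with 20 to 24 nt, 455 with 10 reads and 11 with 500. Members higher in siSrf1 numbered 3, 61 and 0 there, and 1 with a pseudocount of 5. The minimum sets these counts by construction, since it sets how many items are tested; the cause of the other shifts was not tested. Depth limits single inserts, most of which were read once in either library.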
